A study of Arabidopsis thaliana with 12 samples.

Results

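The sequences described here are long transposon entries of the reference to which the reads were aligned. An entry was included if its identifier marked it as a transposon on one of the 5 nuclear chromosomes of Arabidopsis thaliana, if it was at least 3000 bases long, and if its reads summed to at least 200 over all 12 libraries. These conditions selected 126 of the 1691 transposon entries of that length (7.451%), of 31189 transposon entries of any length and of 87128 reference sequences. Of the long entries left out, 962 had no read in any library. The last entries inside the length limit were AT3TE20930 with 3115 and AT3TE09220 with 3144 bases, and the nearest outside were AT5TE37825 with 2990 and AT2TE04900 with 2992 bases. For the summed count, AT2TE17870 with 200 and AT1TE53390 with 203 reads were the last inside, and AT1TE30550 with 196 and AT3TE53215 with 199 reads the nearest outside. The entries were thus chosen by their summed count over all libraries and by length, and their levels are given below as a description. All 126 passed the low-count filter of the test, 110 of them still with at least 150 reads, the pro rata count, in the 9 libraries outside the group in which they were highest. Of the other 16, 12 had at most 50% of their reads in any 1 group and were close to the summed count required. This check left out 1 group at a time. It does not cover entries, such as AT1TE19130 among these 12, that reached the sum only through more than 1 group and so also had to differ. The remaining 4, AT4TE74240, AT1TE38580, AT5TE32355 and AT2TE07175, had 54.9% to 76.2% of their reads in 1 group, reached the required sum only through it and so had to differ between groups. They are included in the counts of called entries below, and where named they are given as a description only.

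All libraries came from whole wild-type Col-0 seedlings grown in shaken liquid culture, with total RNA depleted of ribosomal RNA and sequenced with strand information. The priming group was 6 days old and held at 38 °C for 30 min. Seedlings of the heat shock group were 7 days old, had no pre-treatment and were held at 43 °C for 30 min. Primed heat shock seedlings, also 7 days old, were held at 38 °C for 2 h, returned to 21 °C for 22 h and then held at 43 °C for 30 min. These durations are those of the sample labels, while the general treatment protocol names 2 h for both temperatures, and the labels were followed. Control seedlings were 6 days old and untreated, so that age and treatment cannot be told apart wherever either 7-day-old group is set against the priming or control group. Each group had 3 libraries, whose number stands for 1 of 3 harvest dates shared by the 4 groups. Seedlings of the same age with different harvest dates would come from separate sowings, although the labels do not state how the cultures were grown. The p-values cover only how these samples vary.

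Transposons are DNA segments that can move or copy themselves within a genome. The long ones of plants are mostly retrotransposons, copied through an RNA that starts in a long terminal repeat at the 5′ end of the element. In Arabidopsis they are kept silent by DNA methylation, by methylation of histone H3 and by small RNAs that guide methylation to them. The best-known exception under heat is ONSEN, the ATCOPIA78 family of copia retrotransposons, whose terminal repeats hold binding sites for heat shock factors and which is transcribed in heated seedlings. The files name no family for any entry, and only the 8 full-length ONSEN elements were placed in the genome here. Each was matched to its annotated locus from general knowledge of the family, and its ends were set at the direct repeats found around the locus. The spans found equalled the entry length within 1 base for 4 of the 8 and were 10 to 60 bases shorter for the others, so that their ends are approximate.

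The following 120-base windows from the 5′ terminal repeats of ONSEN elements are shown because they hold the heat shock element units of the family, and because they cover all the distinct versions found among the 8. Capitals mark the letters TTCNNGAA, an inverted pair of units, which reads the same on both strands. All windows come from the RefSeq sequence of build TAIR10.1 and are written 5′ to 3′ along the element.
AT5TE15240, chr5:4212893-4213012, minus strand: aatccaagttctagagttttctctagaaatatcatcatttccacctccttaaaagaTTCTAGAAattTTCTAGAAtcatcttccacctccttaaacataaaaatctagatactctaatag
AT3TE54550, chr3:13369246-13369365, plus strand: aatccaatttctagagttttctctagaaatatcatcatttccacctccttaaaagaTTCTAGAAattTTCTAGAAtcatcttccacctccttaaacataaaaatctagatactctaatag
AT3TE89830, chr3:22059607-22059726, plus strand: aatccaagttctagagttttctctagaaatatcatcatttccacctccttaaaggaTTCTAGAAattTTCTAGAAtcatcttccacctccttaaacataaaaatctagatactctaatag
AT1TE71045, chr1:21529663-21529782, minus strand: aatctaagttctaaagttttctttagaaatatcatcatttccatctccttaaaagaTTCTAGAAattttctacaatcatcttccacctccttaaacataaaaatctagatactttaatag

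The windows of AT1TE12295, AT1TE24850, AT1TE59755 and AT3TE92525 were identical to that of AT5TE15240. Relative to AT5TE15240, and counted from 1 at the 5′ end of the window, AT3TE54550 carried G8T and AT3TE89830 carried A54G. AT1TE71045 carried C5T, G14A, C23T, C44T, G73C and C114T. TTCNNGAA occurred at 2 places in 7 of the 8 windows and at 1 place in that of AT1TE71045. The whole repeat found at AT1TE59755, longer than its window and reaching into the annotated locus, held 3. Neither GAANNTTC nor a run of 3 alternating units (GAANNTTCNNGAA or TTCNNGAANNTTC) was found in the repeats. For comparison, 2127 of 27443 windows of the same length at the starts of protein-coding genes (7.751%), from 100 bases before to 20 bases after the start, held GAANNTTC or TTCNNGAA, and 51 (0.186%) held a run of 3 units. The ONSEN windows were centred on their first match and so hold one by construction, and the share at gene starts says only how often these letters occur. A match describes the letters and shows no binding.

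Aligned reads numbered 72075150 to 152118790 per library. The 126 entries received 27589 to 70396 of them, so that the precision of an entry is set by its own count. Plastid and mitochondrial sequences took 37.2% to 59.2% of the counts per library. As a check of the treatment, the summed level of HSP101, HSFA2 and HSP21, a chaperone, a transcription factor and a plastid small heat shock protein induced by heat, was 22703 to 23402 counts scaled to library size (CPM) in priming, 814 to 1073 CPM in heat shock and 1670 to 2213 CPM in primed heat shock libraries, against 38.5 to 42.2 CPM in control libraries. Between primed heat shock and heat shock libraries these heat markers went different ways. By group means, HSFA2 was lower in primed heat shock (60.5 CPM) than in heat shock libraries (189 CPM, log2 -1.64). HSP101 was higher in primed heat shock (1040 against 750 CPM, log2 0.47), and so was HSP21 (821 against 3.76 CPM, log2 7.77). All 4 shoot and all 4 root markers were detected in every group. The 4 seed storage markers summed to 0.837 to 8.84 CPM and the 4 pollen markers to 1.76 to 4.30 CPM over all libraries, and 2 of the pollen markers were at 0 in each group except heat shock, where 1 was. Against control, 2, 1 and 1 of the 4 shoot markers were called higher in priming, heat shock and primed heat shock libraries and none lower, where 26.7%, 27.9% and 32.1% of all sequences tested were called higher. Of the root markers 1, 0 and 1 were called higher and 1, 2 and 1 lower, of the seed markers 1, 1 and 0 higher and 0, 1 and 0 lower, and of the pollen markers 1, 1 and 1 higher and 1, 0 and 0 lower, in the same order, where 27.1%, 24.5% and 27.2% of all sequences were called lower. The pollen marker called higher, AT1G29140, had 0.0530 ± 0.029 CPM in priming and 0.261 ± 0.017 CPM in heat shock libraries, against 0.00324 ± 0.0056 CPM in control libraries (SD, n = 3 each). The other one tested, AGL65, had 2.17 ± 0.46 CPM in priming and 2.26 ± 0.40 CPM in heat shock libraries, against 3.01 ± 0.22 CPM in control libraries. The part of such material in the results was not tested. In bulk RNA, fewer cells of a type and less RNA per cell cannot be told apart.

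CPM here are scaled with TMM factors, which hold the bulk of the sequences level between libraries. Without such factors the median of all 26159 sequences tested moved by -0.88 (log2) for priming against control, -0.48 for heat shock against control, 0.12 for primed against unprimed heat shock, -0.33 for primed heat shock against control and 0.43 for heat shock against priming. Every change below is therefore relative to the typical sequence of the same libraries. An entry was called when its adjusted p was under 0.05 in edgeR's quasi-likelihood test with Benjamini-Hochberg adjustment over all sequences tested, and every adjusted p below comes from that fit.

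The 126 entries were 3115 to 20351 bases long, with a median of 5114.5. Their summed counts ran from 200 to 101982, with a median of 1107. The reads were concentrated in a few entries, since 17.289% of the 589852 reads fell on AT3TE51345 and 49.122% on the 8 entries with the largest sums. By chromosome there were 28, 25, 31, 21 and 21 entries on chromosomes 1 to 5, which is 6.18% to 8.49% of the long entries of each chromosome. Of all counts without ribosomal RNA, the entries held 0.0390 ± 0.0034% in priming, 0.0445 ± 0.0021% in heat shock and 0.0489 ± 0.0024% in primed heat shock libraries, against 0.0441 ± 0.0038% in control libraries (SD, n = 3 each). As a share of nuclear counts they held 0.0719 ± 0.0016%, 0.101 ± 0.0041% and 0.0994 ± 0.0044% in the same 3 heated groups, against 0.0743 ± 0.0047% in control libraries. On the nuclear scale every heat shock and primed heat shock library was above every control and priming library. No p is given for these shares, because the entries were chosen with results known.

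Per kilobase and averaged over the 12 libraries, the entries ranged from 0.0170 to 9.87 CPM, with AT3TE51345 highest, followed by AT4TE74230 (4.39), AT1TE98440 (3.80), AT1TE71775 (3.51), AT5TE58950 (2.79), AT3TE05245 (2.70), AT2TE20870 (2.46) and AT3TE07330 (2.40 CPM per kilobase). These abundant entries did not share a pattern across groups. AT3TE51345, an entry of 8231 bases, had 153, 98.3 and 102 CPM in priming, 67.8, 87.5 and 83.5 CPM in heat shock and 75.5, 59.9 and 92.4 CPM in primed heat shock libraries, against 54.1, 49.8 and 51.1 CPM in control libraries. All 9 heated libraries lay above the 3 controls, and 1 priming library lay far above the other two. Its log2 change was 1.19 (SE 0.18, adjusted p = 9.6e-05) for priming and 0.62 (SE 0.18, adjusted p = 0.00972) for heat shock against control. Both calls were lost with no scaling factor (adjusted p = 0.0513 and 0.406). AT1TE71775, of 5195 bases, had 3.65, 5.55 and 5.16 CPM in priming, 31.1, 32.8 and 30.8 CPM in heat shock and 24.8, 22.1 and 21.6 CPM in primed heat shock libraries, against 12.4, 16.6 and 11.98 CPM in control libraries. None of the groups overlapped, with priming lowest and heat shock highest, and the log2 change against control was -1.51 for priming (SE 0.15, adjusted p = 1.02e-06) and 1.21 for heat shock (SE 0.14, adjusted p = 6.79e-06).

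AT4TE74230 and AT5TE58950, which changed more, are described further below, and the other abundant entries changed less. AT1TE98440 had group means of 13.0 ± 1.3 CPM in priming, 11.5 ± 0.76 CPM in heat shock and 13.6 ± 0.74 CPM in primed heat shock libraries, against 13.9 ± 0.77 CPM in controls (SD, n = 3 each). Its log2 change was -0.28 for heat shock against control (SE 0.09, adjusted p = 0.0219), with no overlap between the libraries of these groups, and its call was lost without heat shock replicate 2 (adjusted p = 0.0717) or 3 (adjusted p = 0.0852) and with upper-quartile factors (adjusted p = 0.122). AT3TE05245 was lower in priming libraries (7.58 ± 1.4 CPM) than in control libraries (12.2 ± 0.74 CPM; SD, n = 3 each; log2 -0.69, SE 0.14, edgeR adjusted p = 0.000727). AT3TE07330 was at 6.19 ± 0.43 CPM in priming, 9.08 ± 0.78 CPM in heat shock and 9.86 ± 0.18 CPM in primed heat shock libraries, against 7.28 ± 0.22 CPM in control libraries (SD, n = 3 each), and AT2TE20870 at 9.80 ± 1.3, 14.1 ± 1.3 and 10.4 ± 0.62 CPM in the same heated groups, against 10.7 ± 1.0 CPM in control libraries. For heat shock against control both were called higher (log2 0.32 and 0.40), and both changed sign with no scaling factor (log2 -0.16 and -0.10). The call of AT3TE07330 was lost without heat shock replicate 1 (adjusted p = 0.0551) or without the low-count filter (adjusted p = 0.056), and that of AT2TE20870 without control replicate 1 (adjusted p = 0.0551).

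By their group means, 49 entries were highest in heat shock, 47 in primed heat shock, 17 in priming and 13 in control libraries. The lowest mean was in priming for 82 entries, in control for 31, in heat shock for 8 and in primed heat shock for 5. The map of all entries by library shows this as 2 blocks, a large one in which priming was lowest and both 43 °C groups were high, and a small one in which all heated groups exceeded the control.

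**Figure D1:**
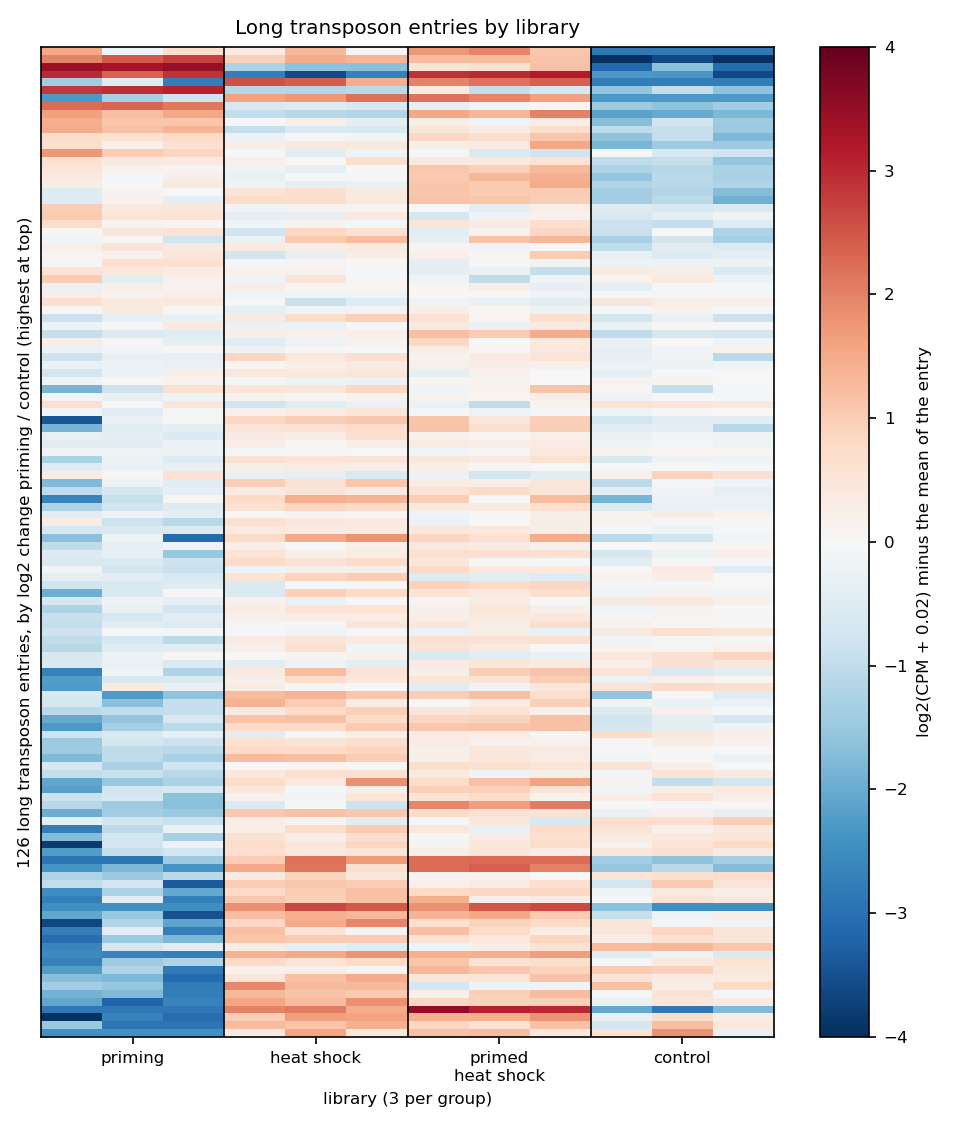
Each row is 1 of the 126 long transposon entries and each column 1 of 12 libraries, in the order priming, heat shock, primed heat shock and control; colour gives log2(CPM + 0.02) minus the mean of the entry, cut off at -4 and 4. Rows are ordered by the log2 change of priming against control, and in most rows of the lower part the 3 priming columns are blue while the 6 columns of the 43 °C groups are red.

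Priming against control asks what 30 min at 38 °C did to these entries. More of them fell than rose: 25 (19.8%) were called higher and 52 (41.3%) lower, where 26.7% and 27.1% of all sequences tested were. The libraries of both groups did not overlap for 26 higher and 61 lower entries, against 28.5% and 29.4% of all sequences. The median log2 change was -0.52, against -0.02 over all sequences. Without scaling factors 18 were called higher and 89 lower.

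AT2TE06390 rose most among the entries with at least 0.5 CPM in the higher group. It had 4.72, 6.61 and 8.04 CPM in priming libraries, against 0.0151, 0.0779 and 0 CPM in control libraries. The groups were far apart, with at least 287 reads in each priming and at most 16 in each control library, and the log2 change was 7.51 (SE 0.47, adjusted p = 5.09e-08). Of the 18 control reads 16 were in 1 library, and the change was 9.72 without control replicate 2 and 6.90 without control replicate 3. AT2TE06390 is as long as AT1TE22850 and AT1TE38580, 5070 bases each, but their sequences were not compared. Near-identical copies can exchange reads, so its level is uncertain if these entries are such copies. AT1TE38580, named for this length after its values were seen, had 48 reads in priming libraries and none in control libraries, at least 42.5-fold higher when the controls are set at a floor of 3 reads over the group, or 28.3-fold without priming replicate 1. AT1TE22850 had 10.6 ± 1.2 CPM in priming libraries, against 5.19 ± 1.0 CPM in control libraries (SD, n = 3 each).

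AT4TE74230, of 12346 bases, had the largest gain in CPM. Its values were 156, 163 and 141 CPM in priming libraries, against 11.9, 10.7 and 12.4 CPM in control libraries. The lowest priming library lay far above the highest control, and the log2 change was 3.72 (SE 0.12, adjusted p = 8.47e-13). AT4TE74240, an entry of the same chromosome with a nearby identifier, had 1.86, 2.02 and 2.21 CPM in priming libraries, against 0.0680, 0.117 and 0.0669 CPM in control libraries. This is a log2 change of 4.55, given with no test because 441 of its 579 reads were in priming libraries and it entered the selection through them. The files give neither entry a genomic position.

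AT1TE74615 had 1.91, 1.25 and 1.81 CPM in priming libraries, against 0.0302, 0.0292 and 0 CPM in control libraries. It was nearly unread in controls, with 10 reads in all, and its log2 change was 6.33, or 5.72 without control replicate 3. No test is given, because it entered the selection through priming and primed heat shock libraries. The remaining large increases, AT3TE54550 (log2 6.33) and AT1TE59755 (log2 3.47), were ONSEN elements, described further below.

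Among the entries that fell, AT3TE06550 had 0.0494, 0.146 and 0.111 CPM in priming libraries, against 0.846, 1.76 and 1.30 CPM in control libraries. Every priming library was below every control, and the log2 change was -3.58 (SE 0.38, adjusted p = 1.89e-06). AT3TE18040, of 11982 bases, had 0.477, 1.15 and 0.664 CPM in priming libraries, against 2.43, 3.55 and 3.28 CPM in control libraries, again without overlap (log2 -1.96, SE 0.24, adjusted p = 8.63e-06). AT5TE49725 and AT5TE50260 changed by -2.83 and -2.45 on the log2 scale, AT2TE18495 by -1.93 and AT3TE63765 by -1.68, with adjusted p-values of 1.71e-06 to 8.97e-05 from edgeR. The change of AT5TE49725 was -3.71 without priming replicate 2. AT3TE63765 had 0.987, 2.42 and 2.75 CPM in priming libraries, against 6.49, 7.26 and 6.06 CPM in control libraries, so that 1 priming library lay well below the other two. AT1TE42210, added after its values were seen, had no read in priming libraries and 103 in control libraries, at least 13.5-fold lower, or 7.37-fold without control replicate 2.

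Heat shock against control sets 30 min at 43 °C, without pre-treatment and 1 day later, against no treatment. Here the entries moved the other way: 63 (50%) were called higher and 9 (7.14%) lower, against 27.9% and 24.5% of all sequences tested. Libraries of the groups did not overlap for 73 higher and 15 lower entries, against 33.1% and 29.3% of all sequences. The median log2 change was 0.59, where that of all sequences was 0.01. The counts were 37 higher and 21 lower without scaling factors.

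**Figure D2:**
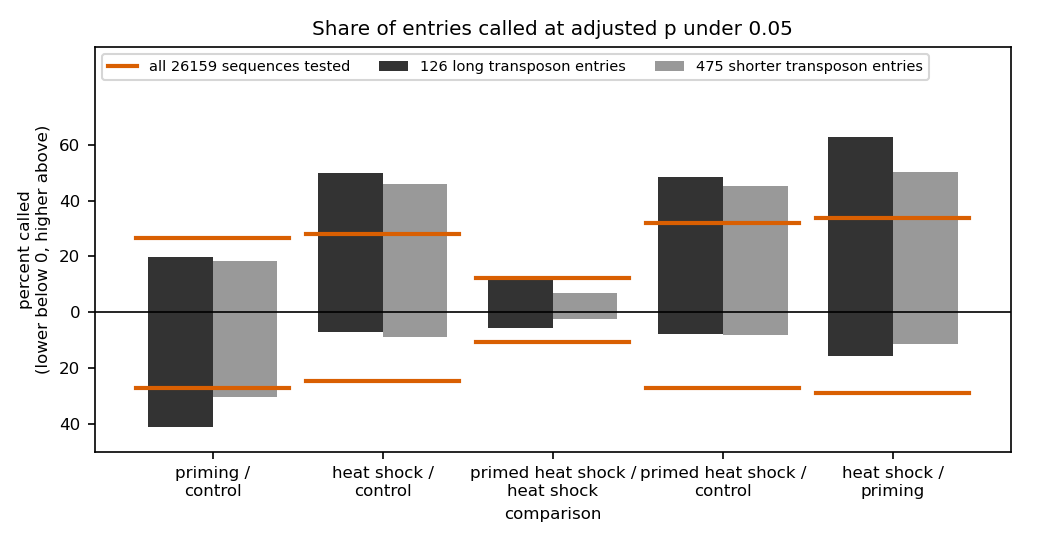
Bars give the percent of the 126 long transposon entries (black) and of the 475 shorter ones with at least 200 reads (grey) called higher, above 0, or lower, below 0, in 5 comparisons; orange lines give the same percent over all 26159 sequences tested. For heat shock against control the black bars reach 50% higher and 7.14% lower, and for priming against control 19.8% higher and 41.3% lower.

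AT3TE44790 was read in no control library and had 0.789, 0.723 and 0.358 CPM in heat shock libraries. With 208 reads against none, it was at least 107-fold higher when the controls are set at a floor of 3 reads over the group. AT2TE28955 had 0.369, 0.683 and 0.585 CPM in heat shock libraries, against 0.0151, 0 and 0 CPM in control libraries, where it rested on 2 reads. The ratio was 139, with a 95% exact counting interval of 37.9 to 1157. AT4TE50435 had 65, 59 and 44 reads in heat shock libraries, against 2, 0 and 4 reads in control libraries, a log2 change of 5.30 (SE 0.54, adjusted p = 3.54e-06), or 4.61 without control replicate 2 and 6.12 without control replicate 3.

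None of these 3 entries was abundant in priming libraries, where AT2TE28955 and AT4TE50435 had no read and AT3TE44790 had 10. AT1TE19130, named after its values were seen, was similar, with 113 reads in heat shock libraries and none in controls, at least 58.1-fold higher, and 4 reads in priming libraries. A further 115 of its 232 reads were in primed heat shock libraries. It reached the required sum only through the heat shock and primed heat shock groups, so its values are a description only. AT2TE06390 was high in heat shock libraries too, at 2.30, 3.33 and 3.05 CPM, against 0.0151, 0.0779 and 0 CPM in control libraries (log2 6.35, SE 0.47, adjusted p = 3.83e-07), a change of 8.55 without control replicate 2 and 5.73 without control replicate 3.

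AT1TE71950 had 4.34, 4.23 and 3.46 CPM in heat shock libraries, against 0.990, 1.24 and 0.680 CPM in control libraries. Its log2 change was 2.05 (SE 0.21, adjusted p = 1.65e-06). It is as long as AT1TE72060, 4814 bases, and their sums over all libraries, 4173 and 4245 reads, were nearly equal. Their sequences were not compared, and if they are near-identical copies, shared reads may be counted on either. AT2TE15975 had 1.31, 1.42 and 1.74 CPM in heat shock libraries, against 0.340, 0.423 and 0.318 CPM in control libraries (log2 2.04, SE 0.21, adjusted p = 1.59e-06). In priming libraries it had 0.0598 ± 0.0054 CPM (SD, n = 3), below all controls (log2 -2.58, SE 0.32, adjusted p = 7.77e-06).

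Among the entries called lower with at least 0.5 CPM in controls, AT1TE75305 changed most, with 0.420, 0.396 and 0.332 CPM in heat shock libraries, against 0.582, 0.978 and 0.803 CPM in control libraries. Its groups did not overlap and its log2 change was -1.05 (SE 0.27, adjusted p = 0.00414). AT2TE20075 changed by -1.02, AT3TE65875 and AT2TE24520 by -0.81 each, AT4TE06680 by -0.78 and AT1TE41800 by -0.61 on the log2 scale. AT3TE65875 passed narrowly (adjusted p = 0.0392) and lost its call without any 1 of 5 libraries, with adjusted p-values of 0.0508 to 0.155, control replicates 1, 2 and 3 and heat shock replicates 2 and 3.

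The 38 °C and 43 °C treatments were compared directly as heat shock against priming. 79 entries (62.7%) were called higher in heat shock and 20 (15.9%) lower, against 33.8% and 29% of all sequences tested, with a median log2 change of 1.02, against 0.06 over all sequences. Libraries did not overlap for 78 higher and 20 lower entries, against 36.5% and 31% of all sequences. Without scaling factors 85 were called higher and 10 lower, and 13 were called lower with upper-quartile factors. AT2TE15975 differed by 4.61 (SE 0.30, adjusted p = 5.31e-09) and AT3TE06550 by 4.73 on the log2 scale (SE 0.37, adjusted p = 6.31e-08), both higher in heat shock. AT1TE74615 lay at the other end, with 4 reads in heat shock libraries against 342 in priming libraries (log2 -6.98, as a description only), followed by AT3TE54550 at -5.18 and AT4TE74240 at -4.31.

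**Figure D3:**
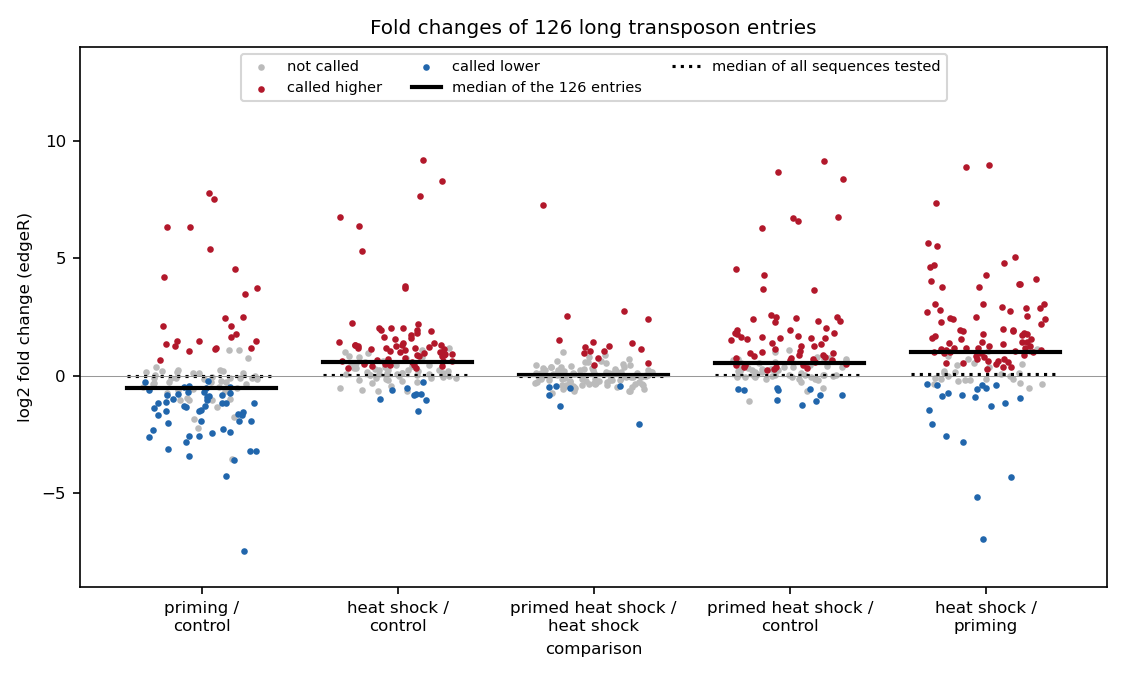
Each point is the fitted log2 fold change of 1 of the 126 entries in 1 of 5 comparisons, red where called higher and blue where called lower; points are spread sideways only to separate them. Solid lines mark the median of the entries, -0.52 for priming against control and 0.59 for heat shock against control, and dotted lines that of all sequences; fitted values of entries with no read in 1 group depend on the prior count.

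Primed heat shock against heat shock compares seedlings of the same age with and without the earlier 38 °C treatment, all after 43 °C. No group had the 2 h at 38 °C and the recovery without 43 °C. RNA left from the first heat and a changed response to 43 °C therefore cannot be told apart. Fewer entries differed: 16 (12.7%) were called higher and 7 (5.56%) lower, against 12.1% and 10.7% of all sequences tested. The share called higher was close to that of all sequences. Libraries of the groups did not overlap for 29 higher and 22 lower entries, against 21.5% and 20.8% of all sequences. The median log2 change was 0.02, against -0.00 over all sequences. Of the 16 increases, 8 were the ONSEN elements. Without scaling factors 17 were called higher and 3 lower.

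AT1TE74615 differed most. It had 1.80, 1.94 and 2.22 CPM in primed heat shock libraries, against 0.0168, 0 and 0.0175 CPM in heat shock libraries. There were 162, 266 and 216 reads against 2, 0 and 2, and the log2 change was 7.26, as a description only. Over the 4 groups this entry was read at similar levels in priming (1.65 ± 0.36 CPM) and primed heat shock libraries (1.99 ± 0.22 CPM), while heat shock libraries (0.0114 ± 0.0099 CPM) differed from controls (0.0198 ± 0.017 CPM) by less than the spread between replicates (SD, n = 3 each; log2 -0.65, SE 0.91, edgeR adjusted p = 0.57).

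AT1TE33490 had 2.03, 1.69 and 2.24 CPM in primed heat shock libraries, against 0.336, 0.515 and 0.279 CPM in heat shock libraries (log2 2.40, SE 0.25, adjusted p = 5.96e-06). It stood apart from AT1TE74615 in that it was not higher in priming than in control libraries. Its level after the longer first heat and the recovery, without the last heat, was not measured. Priming libraries had 0.230, 0.175 and 0.147 CPM, against 0.506, 0.487 and 0.535 CPM in control libraries, which is lower (log2 -1.46, SE 0.29, adjusted p = 0.000615). AT4TE50435 also rose further after priming, to 1.66, 1.20 and 1.15 CPM in primed heat shock libraries, against 0.546, 0.584 and 0.384 CPM in heat shock libraries (log2 1.40, SE 0.35, adjusted p = 0.00997).

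AT5TE58950 had 14.2, 15.4 and 14.4 CPM in primed heat shock libraries, against 29.7, 37.7 and 40.0 CPM in heat shock libraries. It fell by 1.29 on the log2 scale (SE 0.11, adjusted p = 7.96e-07), with no overlap. Priming libraries had 14.8 ± 1.3 CPM, against 22.7 ± 2.0 CPM in control libraries (SD, n = 3 each), so that heat shock without priming was the group in which this entry was highest. AT4TE42860 changed by -0.82, AT2TE73320 by -0.52, AT1TE31775 by -0.48, AT1TE71775 by -0.47 and AT2TE20870 by -0.43 on the log2 scale, with adjusted p-values of 0.00274 to 0.0352. The calls of AT1TE31775, AT1TE71775, AT2TE73320 and AT2TE20870 were lost with no scaling factor. Leaving out 1 library lost those of AT1TE71775 and AT2TE73320 in 5 of 6 cases each (adjusted p = 0.0569 to 0.0846 without any 1 heat shock library or primed heat shock replicate 2 or 3, and 0.053 to 0.147 without any 1 heat shock library or primed heat shock replicate 1 or 2). The call of AT2TE20870 was lost without heat shock replicate 3 (adjusted p = 0.0679) or primed heat shock replicate 2 (adjusted p = 0.0561). The count of 7 lower entries was 4 without heat shock replicate 3 or primed heat shock replicate 2, and 11 by DESeq2.

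**Figure D4:**
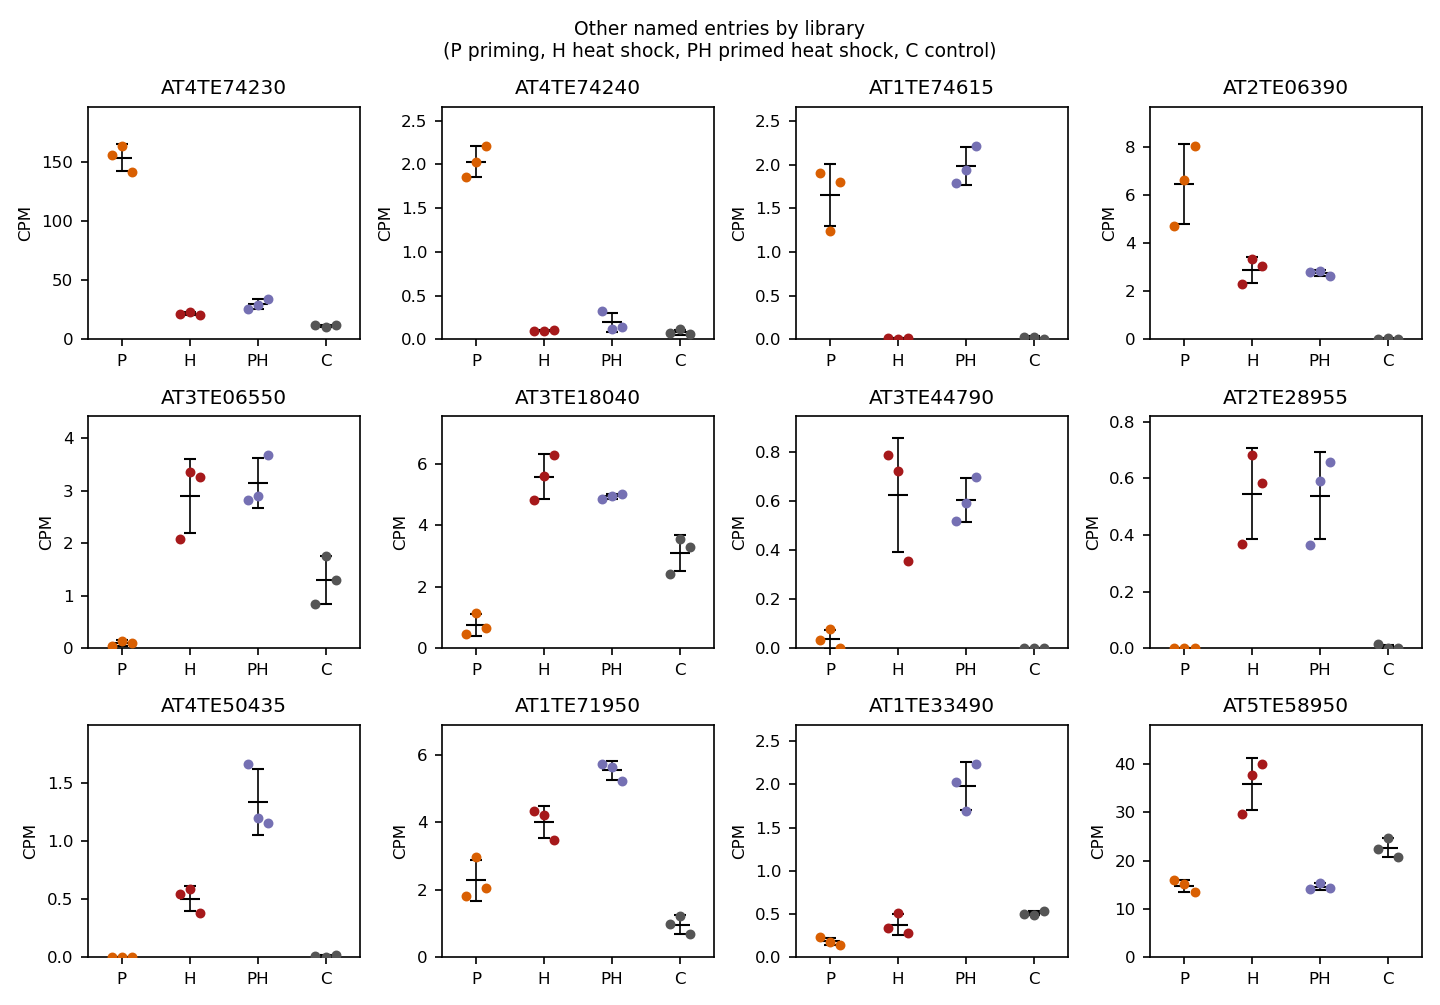
Each panel gives CPM of 1 named entry by library, on its own axis from 0, for priming (P), heat shock (H), primed heat shock (PH) and control (C); points are libraries, and bars the mean and SD of 3. AT1TE74615 is at 1.25 to 2.22 CPM in P and PH and near 0 in H and C, AT3TE44790, AT2TE28955 and AT4TE50435 are high in H and PH, and AT5TE58950 is highest in H.

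Primed heat shock against control gave 61 entries (48.4%) called higher and 10 (7.94%) lower, against 32.1% and 27.2% of all sequences tested, with a median log2 change of 0.55, against 0.03 over all sequences. Libraries did not overlap for 74 higher and 11 lower entries, against 35.9% and 30.8% of all sequences. The counts were 38 and 18 without scaling factors. It shares the control libraries with the comparisons of priming and of heat shock. Leaving out primed heat shock replicate 1 or 3 left 6 or 5 entries called lower. AT3TE44790 had 0.521, 0.592 and 0.698 CPM in primed heat shock libraries and no read in control libraries, at least 104-fold higher. This value too is a description only. AT1TE38580 had 145 reads in primed heat shock libraries and none in control libraries, 54.9% of its reads being in the primed heat shock group through which it entered the selection.

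All 8 ONSEN elements were higher in primed heat shock than in heat shock libraries, with log2 changes of 1.04 to 2.74 and no overlap between the libraries. AT1TE59755 (chromosome 1, bases 18013162 to 18018425, plus strand, at locus AT1G48710) differed most, with 8.01, 6.77 and 10.7 CPM in primed heat shock libraries, against 1.36, 1.26 and 1.19 CPM in heat shock libraries (log2 2.74, SE 0.18, adjusted p = 3.54e-08). It had 8.46, 6.24 and 7.87 CPM in priming libraries, against 0.597, 0.662 and 0.758 CPM in control libraries (log2 3.47, SE 0.18, adjusted p = 5.91e-10).

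Against the control, 7 of the 8 rose in priming libraries, with log2 changes of 1.45 to 6.33, the last, of AT3TE54550, being 7.56 without control replicate 2. The exception was AT5TE15240 (chromosome 5, bases 4208083 to 4213084, minus strand, at AT5G13205), with 2.57, 3.26 and 3.52 CPM in priming libraries, against 2.43, 3.16 and 2.96 CPM in control libraries, which overlapped (log2 0.12, SE 0.15, adjusted p = 0.491). With no scaling factor its sign was reversed (log2 -0.73). Its window is letter for letter that of AT1TE59755, but the whole repeats found differ. That of AT5TE15240 had 463 bases with 2 places of TTCNNGAA, and that of AT1TE59755 had 748 bases with 3.

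AT3TE54550 (chromosome 3, bases 13369174 to 13374048, plus strand, at AT3G32415) was highest in priming libraries. It had 3.31, 3.03 and 3.50 CPM in priming libraries, 0.109, 0.0792 and 0.0785 CPM in heat shock libraries and 0.421, 0.453 and 0.688 CPM in primed heat shock libraries, against 0.0151, 0.0779 and 0.0167 CPM in control libraries. For heat shock against control 7 of the 8 ONSEN elements were called higher (log2 0.40 to 1.27), and the log2 change of AT3TE54550, 1.15 (SE 0.51), missed the threshold (adjusted p = 0.0701), and without control replicate 2 it was 2.38 (adjusted p = 0.00187). AT1TE24850 (chromosome 1, bases 7714734 to 7722548, plus strand, at AT1G21945), the longest at 7840 bases in the reference, had 25.0, 20.3 and 23.0 CPM in priming libraries, against 4.43, 4.73 and 3.20 CPM in control libraries (log2 2.47, SE 0.15, adjusted p = 6e-09). For heat shock it had 4.62, 5.93 and 5.79 CPM, which overlapped the controls (log2 0.40, SE 0.15, adjusted p = 0.0359), a call lost without control replicate 1 or 3 or heat shock replicate 2 or 3 (adjusted p = 0.0529 to 0.196), with the replicate block (adjusted p = 0.0568) or with only these groups in the fit (adjusted p = 0.0544), and turned to -0.09 with no scaling factor.

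The other ONSEN elements were AT1TE12295 (chromosome 1, 3780765 to 3785720), AT1TE71045 (chromosome 1, 21524993 to 21529826), AT3TE89830 (chromosome 3, 22059535 to 22064329) and AT3TE92525 (chromosome 3, 22695566 to 22700521). They had group means of 2.33 to 2.54 CPM in priming, 1.40 to 1.87 CPM in heat shock and 2.89 to 4.98 CPM in primed heat shock libraries, against 0.577 to 0.908 CPM in control libraries. Relative to heat shock they were higher in primed heat shock by 1.42, 1.27, 1.04 and 1.51 on the log2 scale, in the order listed. AT1TE71045, whose window has 1 TTCNNGAA in place of 2, was within the range of the other 3 in this comparison. The part of the number of TTCNNGAA places was not tested.

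**Figure D5:**
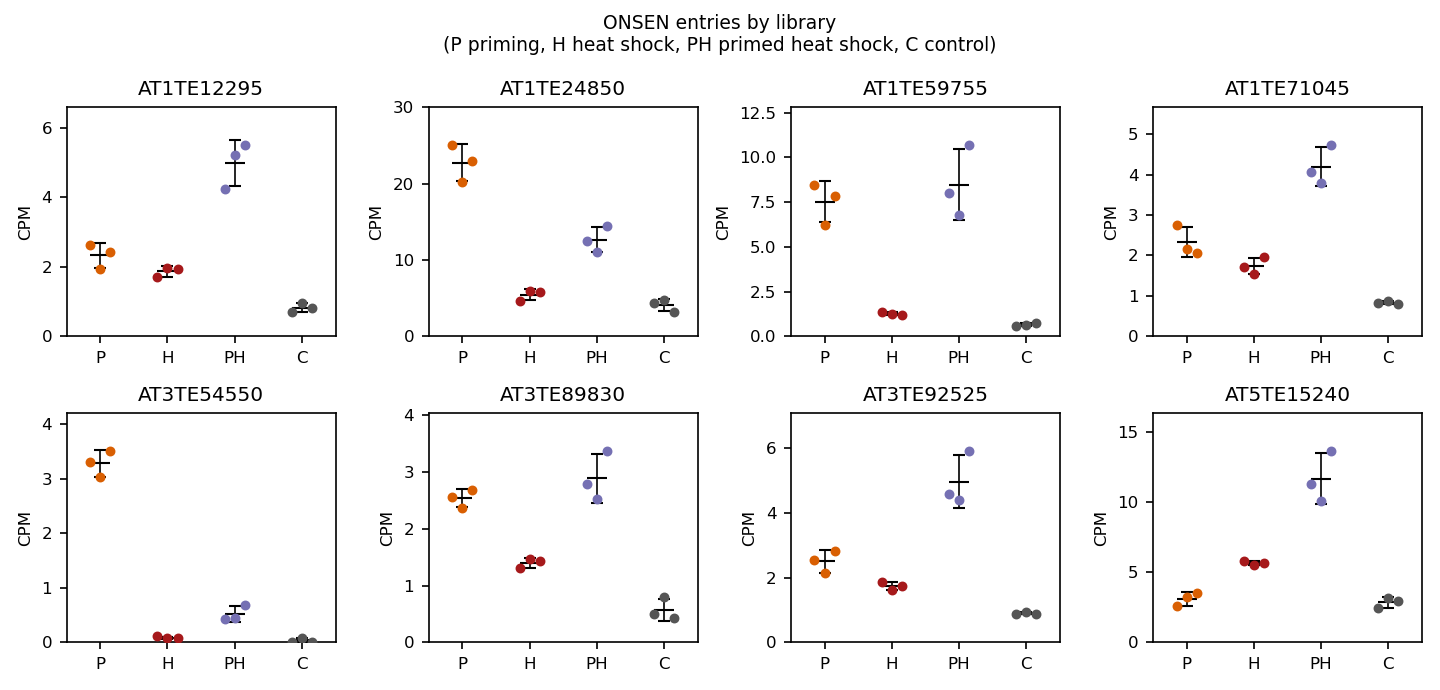
CPM of the 8 ONSEN entries by library for priming (P), heat shock (H), primed heat shock (PH) and control (C), each panel on its own axis from 0; points are libraries, and bars the mean and SD of 3. In all panels PH lies above H, and AT5TE15240 is the panel in which P overlaps C.

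Each ONSEN element stands in the reference 3 times, as a transposon entry, as its locus and as a second entry of the locus, and reads that match all of them are split. The transposon entries held 35.5% to 47.2% of the reads of their 3. When the 3 were summed, all 8 were again called higher in primed heat shock than in heat shock libraries, with log2 changes of 0.70 to 2.83, the lowest that of AT1TE24850 (1.22 from its transposon entry alone). The same 7 were called higher for priming against control, with 1.53 for AT1TE24850 in place of 2.47 and 1.43 to 5.73 over the 7. For heat shock, AT1TE24850 was not called against control (log2 0.33, adjusted p = 0.0804) and AT3TE54550 was (log2 1.18, adjusted p = 0.0012). AT1TE12295 and AT3TE92525 have the same length, 4957 bases, and 3181 and 3179 reads in all, so that reads shared between them may also be counted on either.

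Shorter transposon entries with at least 200 reads moved in the same directions by their medians. Of these 475, 87 were called higher and 145 lower for priming against control, 218 and 42 for heat shock against control, 32 and 11 for primed against unprimed heat shock, and 238 and 54 for heat shock against priming. Their median log2 changes were -0.33, 0.59, 0.03 and 0.86. The difference between long and short entries was not tested.

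Genes of DNA methylation and transposon silencing are given as a list of 28, all of which were tested. The list also holds ROS1, which removes DNA methylation, and IBM1, which removes histone H3 methylation. For priming against control 6 (21.4%) were higher and 7 (25%) lower, against 26.7% and 27.1% of all sequences, and with no scaling factor 1 and 25. AGO1, the main carrier of microRNAs, had 223 ± 11 CPM in priming libraries, against 85.6 ± 12 CPM in control libraries (log2 1.38, SE 0.10). SUVH5, a histone H3 lysine methyltransferase, and MET1, which maintains CG methylation, changed by -0.78 and -0.75 on the log2 scale. For heat shock against control 3 (10.7%) were higher and 8 (28.6%) lower, against 27.9% and 24.5% of all sequences, and with no scaling factor none and 20. The 8 lower included ROS1 (log2 -0.53) and the 3 higher included IBM1 (log2 0.26). CMT3, a methyltransferase of CHG sites, had 1.70 ± 0.17 CPM in heat shock libraries, against 4.35 ± 0.14 CPM in control libraries (log2 -1.36, SE 0.13), and MET1 and DDM1, a chromatin remodeller needed for transposon methylation, changed by -1.31 and -0.91.

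Between primed heat shock and heat shock 2 genes of this list were higher in primed heat shock (7.14%) and 1 lower (3.57%), against 12.1% and 10.7% of all sequences, and with no scaling factor 2 and none. CMT3 had 3.64 ± 0.15 CPM in primed heat shock libraries, against 1.70 ± 0.17 CPM in heat shock libraries (log2 1.1, SE 0.13; SD, n = 3 each, as above). SUVH6, related to SUVH5, changed by 0.50, and NRPD2A, a subunit shared by RNA polymerases IV and V, by -0.32 on the log2 scale. For primed heat shock against control 2 (7.14%) were higher and 9 (32.1%) lower, against 32.1% and 27.2% of all sequences, and for heat shock against priming 5 (17.9%) and 11 (39.3%), against 33.8% and 29%. With no scaling factor these counts were 0 and 17, and 10 and 3. The part of these genes in the levels of the transposon entries was not tested.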

How the data were processed

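Total RNA of whole seedlings was sequenced in 12 libraries, 3 in each of 4 groups taken from the sample labels. The authors deposited raw counts of aligned reads for each reference sequence, with its length and the reads left unaligned beside a mate placed there. The submitters' processing notes name Bowtie2, SAMtools, DESeq2 and build TAIR10, without versions. How reads that match several sequences were placed, and whether strand was used, is not given in the sources used here. Reads shared by near-identical copies, and by a transposon entry and an overlapping locus, can therefore be split between them.

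Entries and gene lists were chosen with earlier results of these data known. Counts of all sequences except 17 of ribosomal RNA (0.421% to 0.934% of aligned reads) and the unplaced reads were tested with edgeR 4.0.16 in R 4.3.3, using TMM factors (0.648 to 1.44), a low-count filter (filterByExpr by group, minimum count 10), robust quasi-likelihood dispersions and group means over all 12 libraries, and Benjamini-Hochberg adjustment over 26159 sequences. The biological coefficient of variation was 0.143. The SE is the absolute log2 fold change divided by the square root of F. In simulated counts for priming against control (25434 sequences), 89% of 2-fold and 99% of 4-fold changes were recovered and 0.0476% of unchanged sequences were called. Only 100 sequences were changed at each size, all above a minimum level, and all sequences had the same dispersion. In the data far more sequences changed, so these rates need not hold there, least of all for entries with few reads. Replicates differed beyond counting noise in every pair (chi-square per degree of freedom 15.7 to 127).

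Named entries were the 8 highest per kilobase, the ONSEN entries, those nearest the thresholds and, for each of the 3 main comparisons, the 6 largest called increases and decreases without overlap and with at least 0.5 CPM in the higher group. Replicate numbers pair the libraries, since the labels tie each to a harvest date, although deviations of same-numbered libraries hardly correlated (mean r of -0.02 to 0.06 between groups). Alternatives were other scaling factors, no low-count filter, nuclear sequences only, ribosomal RNA kept, 2 groups only, a replicate block, DESeq2 1.42.0, each library left out and, chosen after seeing the data, summed ONSEN entries. Intervals and floors cover counting error only. Figures were drawn with matplotlib 3.10.9 and tables with pandas 2.3.3, in Python 3.11.15.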

Additional observations from a re-analysis of the deposited data

Results flagged for a closer look

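Beside the aligned reads, the files list at each entry the reads that stayed unaligned while their mate was placed there. These were not used in the comparisons above. The entries and groups listed next were picked from all 126 entries, and only for values above control. Each had at least 20 such reads in the group. Per library depth every library of the group lay above all control libraries, and per aligned read the group lay above control. AT4TE74230 had 130 such reads in priming libraries, against 13 in control libraries, beside its rise in aligned reads. AT4TE50435 had 37 in primed heat shock libraries and 0 in control libraries, where it also had very few aligned reads. AT5TE41395 had 20 in priming, 20 in heat shock and 31 in primed heat shock libraries, against 5 in control libraries. AT2TE26865 had 50 in heat shock and 41 in primed heat shock libraries, against 26 in control libraries, and AT3TE69475 had 25 and 27 in the same groups, against 10 in control libraries. In heat shock libraries AT5TE58950 had 31, AT3TE71565 had 23 and AT2TE18495 had 22, against 17, 5 and 3 in control libraries. In primed heat shock libraries AT3TE61650 had 61 and AT3TE51345 had 826, against 31 and 874 in control libraries, the last at a greater depth of the controls. Over all 126 entries the median was 1.30 unaligned mates per 100 aligned reads, and 22 entries had more than 5. AT1TE52200 had the most, 92.1 per 100, with values of 91.5 to 93.1 in each group. AT1TE24850 had 24.6 per 100 in priming, 76.4 in heat shock and 34.8 in primed heat shock libraries, against 87.2 in control libraries.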

How the results depend on the processing

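Of 160 recomputed counts of called entries, 147 stayed within 1.5 times the reported count and 13 did not. With no scaling factor, 37 entries were called higher for heat shock and 38 for primed heat shock against control. In that setting, 89 were called lower for priming, 21 for heat shock and 18 for primed heat shock against control, 3 for primed against unprimed heat shock and 10 for heat shock against priming, which was 13 with upper-quartile factors. DESeq2 called 11 lower for primed heat shock against heat shock. Leaving out 1 library gave, higher and lower, 23 to 27 and 46 to 53 for priming against control, 55 to 64 and 6 to 10 for heat shock against control, 12 to 15 and 4 to 6 for primed against unprimed heat shock, 48 to 58 and 5 to 9 for primed heat shock against control, and 72 to 77 and 15 to 19 for heat shock against priming. The causes were not tested beyond the scaling shifts given above.

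With the replicate block, 26 and 52 entries were called higher and lower for priming against control, 16 and 8 for primed against unprimed heat shock and 62 and 9 for heat shock against control. The block lost the calls of AT3TE07330 for priming (adjusted p = 0.0515) and AT1TE24850 for heat shock (adjusted p = 0.0568), both against control, and no other call of a named entry.

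Among 1183 recomputed changes of single named entries, 1118 kept direction and side of the threshold, 47 fell short of it, 11 passed it newly and 7 changed sign. With no scaling factor the sign changed for AT5TE15240 for priming (log2 -0.73), for AT1TE24850 (-0.085), AT3TE07330 (-0.16) and AT2TE20870 (-0.10) for heat shock against control, and for AT3TE51345 for primed against unprimed heat shock (0.043). Leaving out 1 library moved this last value over a range of -0.24 (without primed heat shock replicate 3) to 0.077 (without primed heat shock replicate 2), and it was 0.0037 without heat shock replicate 2. As a share of nuclear counts the entries held 0.0719% in priming, 0.101% in heat shock and 0.0994% in primed heat shock libraries, against 0.0743% in control libraries, and without AT3TE51345 0.0304%, 0.0369% and 0.0410% of all counts, against 0.0371% in control libraries.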
